A study of Mus musculus with 24 samples.

Results

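The miRs miR-1839, miR-1983 and miR-2135 were measured by 4 mature probe sets on the miR arrays, among 722 mature and 1412 mouse probe sets in all. They were picked by name from a wider group because their measured values on these arrays had risen or fallen, so their differences between groups are given as a description, with no test. The probe sets are those of miR-1839-3p, miR-1839-5p, miR-1983 and miR-2135. Another 4 probe sets, for the hairpins mir-1839, mir-1983, mir-2135-4 and mir-2135-5, played no part in that choice and were tested.

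Most miRs are cut out of a primary transcript of RNA polymerase II by Drosha with Dgcr8, exported as a hairpin, cut again by Dicer1 and loaded into Argonaute proteins such as Ago2, where bases 2 to 8 (the seed) pair with target mRNAs. Some small RNAs of the same size come instead from RNAs with another main job. A small nucleolar or Cajal body RNA of the H/ACA type guides pseudouridylation and is bound by dyskerin, the product of Dkc1, and fragments of it can be cut by Dicer1 and bound by Argonaute. A tRNA is made by RNA polymerase III and trimmed at its 3′ end by the RNase Z Elac2, and its loops can be cut by angiogenin, the product of Ang. In miRNA research miR-1983 is known for its overlap with a tRNA for isoleucine, and miR-1839 for its likeness to an H/ACA-type RNA.

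All samples were hippocampi of male C57BL/6 mice on postnatal day 9, with both hippocampi of a pup in 1 tube. Untreated controls (Con, 0 mg/kg) stayed with the dam. From postnatal day 5 the MS2 group received morphine at 2 mg/kg and the MS5 group at 5 mg/kg, and both also went through maternal separation in a warmer and spells of nitrogen followed by oxygen. No group had morphine alone or the stress alone, so morphine and stress cannot be told apart in either contrast with controls, and the same control arrays stand in both. The miR arrays numbered 9, with 3 pups per group (Con 16, 17 and 18, MS2 3, 4 and 6, MS5 9, 12 and 14), and the mRNA arrays 15, with 5 per group. Fewer cells of a type and less RNA per cell cannot be told apart in such tissue.

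RefSeq sequences (GRCm38.p6) were found for 2 of the 4 mature names, miR-1839-5p and miR-1983, and none is shown for miR-1839-3p and miR-2135. The mature sequences are given first, 5′ to 3′, with the seed in capitals, because the seed is what a mature miR is grouped by.
miR-1839-5p: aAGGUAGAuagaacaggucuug
miR-1983: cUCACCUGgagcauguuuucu
The mature miR-1839-5p lies at chr7:81529919-81529940 on the plus strand and miR-1983 at chr13:21896930-21896950 on the minus strand. No other of the 1679 mature mouse sequences in the table carried the seed of miR-1839-5p. Its first 6 letters, AGGUAG, stood 1 base further along, at bases 3 to 8, in 11 mature miRs, which were 9 of the let-7 family, miR-98-5p and miR-1961. The seed of miR-1983 was shared by 1 other sequence, miR-412-3p.

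The hairpins are shown because they carry what sets these loci apart, with the mature miR in capitals.
Mir1839: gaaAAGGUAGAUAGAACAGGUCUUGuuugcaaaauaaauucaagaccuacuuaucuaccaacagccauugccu
Mir1983: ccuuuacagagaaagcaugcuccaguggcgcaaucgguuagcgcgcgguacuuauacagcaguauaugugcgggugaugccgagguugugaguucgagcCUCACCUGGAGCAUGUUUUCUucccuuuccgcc
The hairpin of Mir1839 takes 73 bases, chr7:81529916-81529988 on the plus strand, and the mature 5p arm occupies bases 4 to 25. It lies within the long non-coding RNA gene 2900076A07Rik (chr7:81523550-81531498, 7949 bases), starting at base 6367 of it as counted along the chromosome. Of the 1228 miRNA genes in this annotation, 176 (14.3%) overlapped a long non-coding RNA gene and 4 (0.326%) a snoRNA gene, and Mir1839 was not among the 4. The annotation used here therefore gives no snoRNA at Mir1839, whatever its sequence resembles.

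The hairpin of Mir1983 takes 132 bases, chr13:21896918-21897049 on the minus strand. The tRNA gene n-TItat14 (chr13:21896938-21897031, 94 bases) fills bases 19 to 112 of it. The mature miR-1983 runs from base 100 to base 120, so that 13 of its 21 bases are the 3′ end of the tRNA and the remaining 8 follow the tRNA's last base. Mir1983 was the 1 miRNA gene of the 1228 (0.0814%) that overlapped an annotated tRNA gene. RNAfold paired 18 base pairs in the Mir1839 hairpin, with 1 hairpin loop and a minimum free energy of -22.0 kcal/mol, the shape of a usual precursor. In the longer Mir1983 hairpin it paired 41, with 3 hairpin loops and -52.7 kcal/mol.

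**Figure D1:**
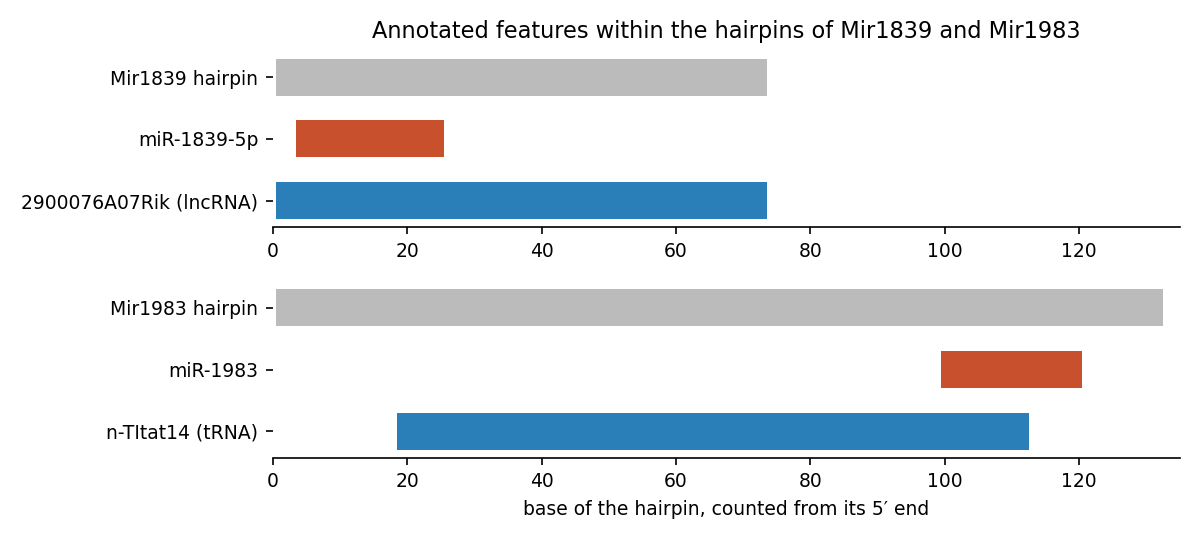
Annotated features along the hairpins of Mir1839 (73 bases) and Mir1983 (132 bases), in bases from the 5′ end of each hairpin, with the hairpin in grey, the mature miR in red and the overlapping gene in blue. The span of the long non-coding RNA gene covers all of the first hairpin, while miR-1983 spans the 3′ end of the tRNA, 13 bases inside it and 8 beyond.

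Several libraries stood apart before any of these miRs was compared. On the mRNA arrays, the summed level of 10 hippocampal neuron genes was 41340 on MS2 replicate 4 and 123077 to 148922 on the other 14. The sum of 10 hypothalamus and thalamus genes was 38822 on that array, against 3785 to 15539 elsewhere, so the dissection label and the markers disagreed there. Choroid plexus genes (12) summed to 235533 to 354841 in controls, 249085 to 320643 in MS2 and 11846 to 287317 in MS5. All of the neuron and choroid plexus markers were above background on every array. MS2 replicate 5 had the weakest mRNA array, with a median signal before normalization of 51.0, against 100.4 to 127.9 on the others. On it 67.1% of spots were well above background, against 72.5% to 79.0% on the others. MS5 replicate 9, labelled male, carried Xist at 11.34 (log2) on its mRNA array, against 5.89 to 6.08 on the others.

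The miR arrays of MS5 also differed in choroid plexus miRs, but numbers 9 and 12 did not match the mRNA arrays. The 10 choroid plexus and ciliated cell miRs, miR-204, miR-211, miR-448, miR-449 and miR-34 among them, summed to a linear level of 2114 to 4138 in controls and 1841 to 3251 in MS2. In MS5 they summed to 3410 on replicate 9, 874 on replicate 12 and 930 on replicate 14. On the mRNA arrays replicate 12 was high in choroid plexus genes (287317) and replicates 9 and 14 were low (70066 and 11846). A number shared by a miR and an mRNA array is thus not shown to be the same pup, and no value was joined across the assays by number. Each difference of the 4 mature probe sets from controls is also given as a range over fits that left out 1 array each.

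**Figure D2:**
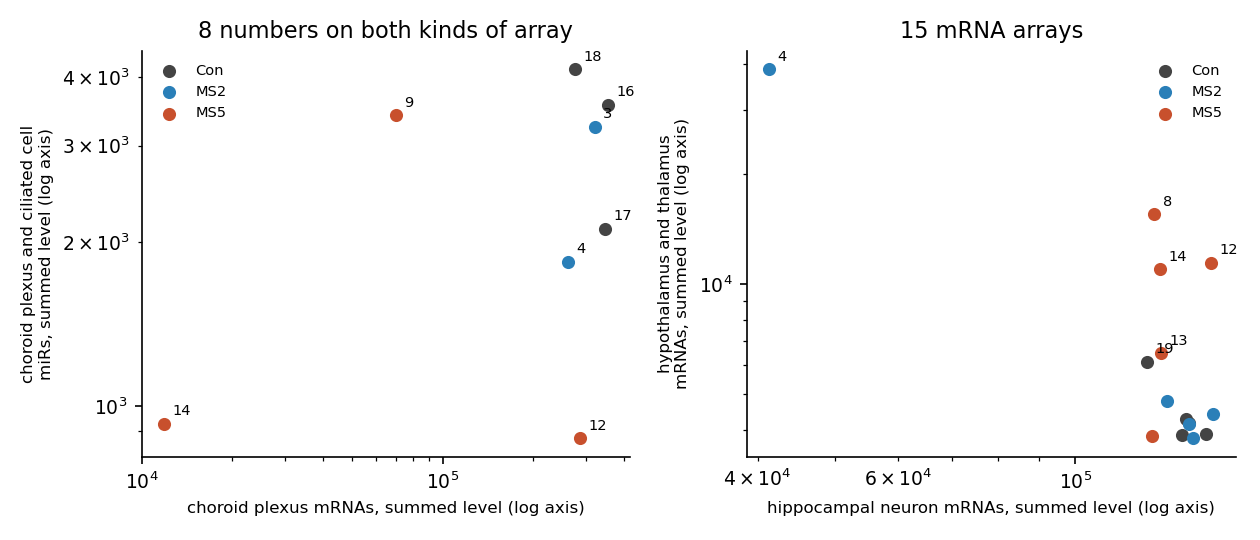
Left, summed linear level of 12 choroid plexus mRNAs (x) and of 10 choroid plexus and ciliated cell miRs (y) for the 8 replicate numbers found on both kinds of array, both on log axes. Right, 10 hippocampal neuron mRNAs (x) against 10 hypothalamus and thalamus mRNAs (y) on the 15 mRNA arrays, on log axes, with numbers at the arrays highest on the y axis. MS5 numbers 9 and 12 lie on opposite sides in the left plot, and MS2 replicate 4 lies alone at the upper left of the right plot.

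Of the 4 probe sets, miR-1839-3p moved furthest relative to its spread. Its level (log2) was 5.33, 5.16 and 5.23 in control replicates 16, 17 and 18. In MS2 it was 5.84, 5.84 and 6.25 in replicates 3, 4 and 6, and in MS5 it was 6.03, 6.02 and 6.05 in replicates 9, 12 and 14. All 6 arrays of treated pups lay above all 3 control arrays. The means were 5.24 ± 0.083 in controls, 5.98 ± 0.24 in MS2 and 6.03 ± 0.013 in MS5 (SD, n = 3). The difference from controls was 0.74 (log2, SE 0.11), or 1.67-fold, in MS2 and 0.79 (SE 0.11), or 1.73-fold, in MS5. Leaving out 1 array at a time gave 0.61 to 0.81 in MS2 and 0.76 to 0.84 in MS5. Between the doses the difference was 0.052 (log2, SE 0.11) and the arrays overlapped. The authors also measured this miR by RT-PCR, and the paper does not list it among the miRs whose array change RT-PCR reproduced.

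The other arm of the same hairpin, miR-1839-5p, moved less. Its level (log2) was 8.52, 8.39 and 8.36 in controls, 8.49, 8.91 and 8.57 in MS2 and 8.31, 8.81 and 8.64 in MS5, in the same order of replicates. MS5 replicate 9 was lower than every control array and MS5 replicate 12 higher than every one. The means were 8.42 ± 0.086, 8.65 ± 0.22 and 8.59 ± 0.25 (SD, n = 3), and the groups overlapped in all 3 contrasts. The difference from controls was 0.23 (log2, SE 0.14) in MS2 and 0.16 (SE 0.14) in MS5. With 1 array left out it was 0.10 (without MS2 replicate 4) to 0.32 (without MS2 replicate 3) in MS2, and in MS5 it fell between 0.054, with replicate 12 left out, and 0.30, with replicate 9 left out.

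Set against its partner within each array, the 3p arm gained. The 3p level minus the 5p level (log2) was -3.19, -3.22 and -3.13 in controls, -2.64, -3.06 and -2.31 in MS2 and -2.28, -2.78 and -2.59 in MS5. These values compare probe sets with unlike probes, so their size says nothing of how much of each arm was present, while their change between arrays can be read. The means were -3.18 ± 0.048, -2.67 ± 0.37 and -2.55 ± 0.25 (SD, n = 3), and all 6 treated arrays lay above all 3 control arrays. The highest control array and the lowest treated array, MS2 replicate 4, were close, at -3.13 and -3.06. A scaling of a whole array cancels in this measure. The measure holds the same miR-1839-3p values by which the miR was chosen, so its separation of the groups follows in part from that choice.

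The level of miR-1983, whose locus overlaps the tRNA gene, was also higher in both treated groups. Its level (log2) was 6.48, 6.90 and 6.30 in controls, 7.04, 7.46 and 7.18 in MS2 and 6.98, 7.22 and 7.33 in MS5. All 6 treated arrays lay above all 3 control arrays, with the narrowest gap between control replicate 17 at 6.90 and MS5 replicate 9 at 6.98. The means were 6.56 ± 0.31, 7.23 ± 0.21 and 7.18 ± 0.18 (SD, n = 3). The difference from controls was 0.67 (log2, SE 0.17), or 1.59-fold, in MS2 and 0.61 (SE 0.17), or 1.53-fold, in MS5. With 1 array left out it ranged from 0.54 to 0.83 in MS2 and from 0.48 to 0.78 in MS5, and in both the extremes came from leaving out control replicates 18 and 17. MS5 and MS2 differed by -0.050 (log2, SE 0.17) and overlapped. This miR too was measured by the authors with RT-PCR, and the paper does not list it among those whose array change was reproduced.

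The level of miR-2135 was lower in treated pups, and least evenly so in MS5. It was 9.81, 9.42 and 9.64 (log2) in controls, 9.25, 8.95 and 9.10 in MS2 and 8.34, 8.94 and 9.51 in MS5. All 3 MS2 arrays lay below all 3 control arrays. In MS5, replicates 9 and 12 lay below the controls, and replicate 14 lay above control replicate 17. The means were 9.62 ± 0.20, 9.10 ± 0.15 and 8.93 ± 0.58 (SD, n = 3), so the spread in MS5 was the widest of any of the 4 probe sets. The difference from controls was -0.52 (log2, SE 0.25), or 1.43-fold lower, in MS2 and -0.69 (SE 0.25), or 1.62-fold lower, in MS5. It ranged from -0.62 to -0.43 in MS2. In MS5 it was -0.40 without replicate 9 and -0.98 without replicate 14, so these 2 arrays set its size. MS5 minus MS2 was -0.17 (log2, SE 0.25), with overlap.

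**Figure D3:**
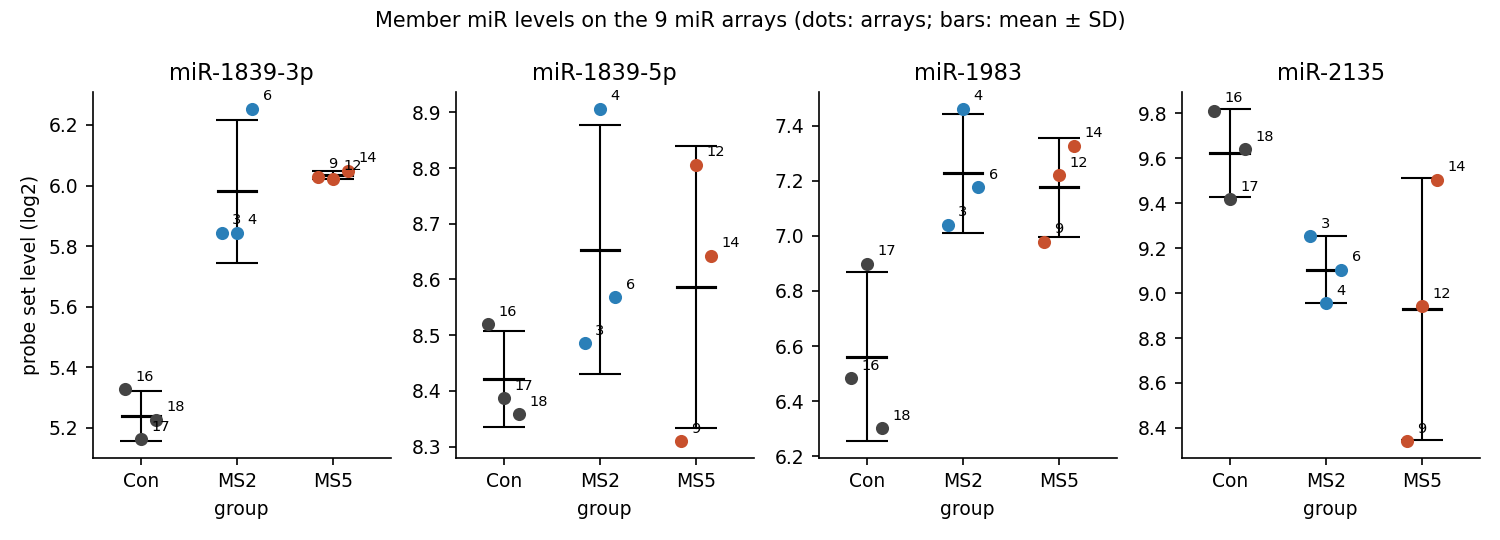
Probe set level (log2, y) of miR-1839-3p, miR-1839-5p, miR-1983 and miR-2135 on each of the 9 miR arrays, by group (x), with dots for arrays marked by replicate number and bars for the mean ± SD of 3 arrays. The y axes do not start at 0 and differ between panels. Both treated groups sit wholly above controls for miR-1839-3p and miR-1983, while MS5 replicate 14 of miR-2135 lies among the controls.

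Counted over the 4 probe sets, 2 lay entirely above controls and 1 entirely below in MS2, where 7.22% and 8.57% of all 1412 probe sets did. In MS5, 2 lay entirely above and 0 entirely below, where 6.52% and 5.74% of all did. Between MS5 and MS2, 0 of the 4 were separated, where 5.59% lay entirely above and 2.83% entirely below. The first 2 pairs of counts follow from how the miRs were chosen. Over all probe sets the median difference was -0.014 (log2) in MS2 and 0.0014 in MS5. The quantile normalization behind these values holds such medians near 0, so a shift of a whole group could not be seen. The doses did not separate any of the 4, although the SE of each difference, 0.11 to 0.25, leaves room for a difference between doses of that size.

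No hairpin probe set passed the test in any contrast. The hairpin mir-1839 stood at 4.16 ± 0.038 (log2) in controls, 4.20 ± 0.0091 in MS2 and 4.27 ± 0.18 in MS5 (SD, n = 3). Its difference from controls was 0.043 (SE 0.092, limma adjusted p = 0.909) in MS2 and 0.11 (SE 0.092, limma adjusted p = 0.888) in MS5. The hairpin mir-1983 was at 4.83, 4.70 and 4.96 on average, with differences from controls of -0.13 (limma adjusted p = 0.732) and 0.13 (limma adjusted p = 0.888). Between the doses mir-1983 differed by 0.25 (SE 0.12, limma adjusted p = 0.711).

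For mir-2135-4 the difference was -0.082 (limma adjusted p = 0.798) in MS2 and 0.058 (limma adjusted p = 0.955) in MS5. The probe set mir-2135-5 differed by -0.093 (limma adjusted p = 0.777) in MS2 and by -0.23 (SE 0.099, limma adjusted p = 0.573) in MS5, the 1 hairpin contrast with an unadjusted p under 0.05. By limma 0 of 4 hairpins passed an adjusted p under 0.05 in MS2, where 1.13% of all 1412 probe sets did, and 0 of 4 in MS5 and between doses, where 0% did. The 4 hairpins had levels of 3.57 to 5.07 over the 9 arrays, around the array medians of 4.17 to 4.21, so a change in precursor was hardly detectable at this signal.

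**Figure D4:**
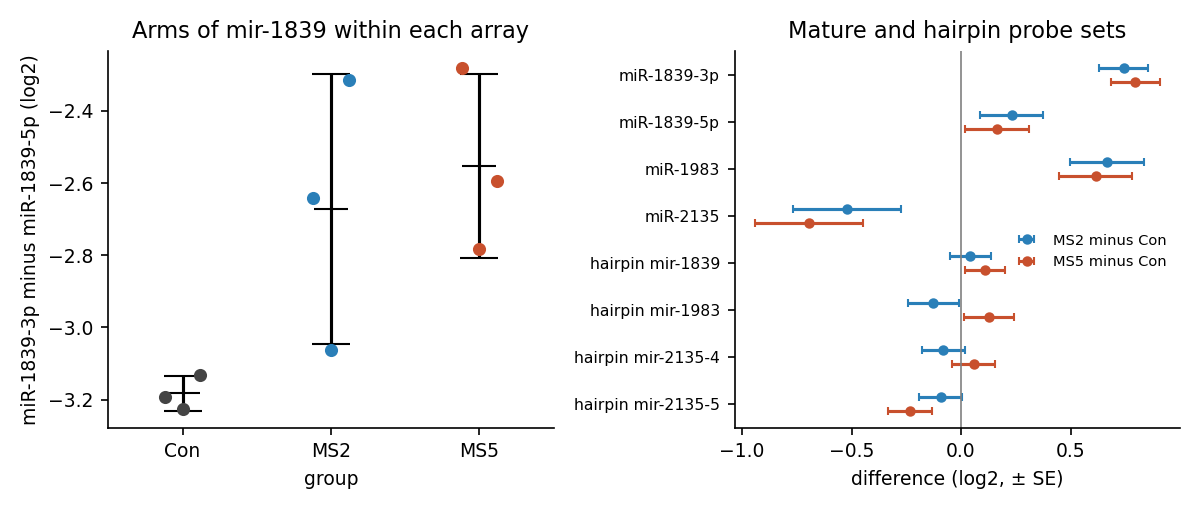
Left, level of miR-1839-3p minus miR-1839-5p (log2, y) on each of 9 miR arrays by group, with the mean ± SD of 3 arrays. Right, difference from controls (log2, x, ± SE of the limma fit) for the 4 mature and 4 hairpin probe sets, in blue for MS2 and red for MS5. All 6 treated arrays lie above the 3 control arrays on the left, and the hairpin differences on the right stay between -0.23 and 0.13.

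Other names that resemble these were then read beside them. A list of 15 mature probe sets held names numbered next to miR-2135 together with miR-720 and miR-1937, which are known for their overlap with tRNAs. In MS2 4 of the 15 differences from controls were positive and 11 negative, with a median of -0.11 (log2) and a range of -0.38 to 0.20. In MS5 2 were positive and 13 negative, with a median of -0.23 and a range of -0.32 to 0.24. Over all 1412 probe sets 767 differences were negative in MS2 and 701 in MS5. Each of the 15 was smaller in size than the -0.52 and -0.69 of miR-2135. The latter had been chosen because it had fallen on these arrays, so this ranking follows in part from the choice. In MS2 2 of the 15 lay entirely below controls (miR-2141 and miR-2146), where 8.57% of all did, and in MS5 1 did (miR-2146, at -0.23), where 5.74% of all did. In both groups 0 of the 15 lay entirely above. With limma 0 of the 15 had an adjusted p under 0.05, where 1.13% of all did in MS2 and 0% in MS5.

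Mirtrons are miRs whose hairpin is made by splicing and skips Drosha. The 8 mature probe sets of known mirtrons and of the names next to miR-1983 had median differences of 0.0066 (log2) in MS2 and 0.014 in MS5, with 4 positive and 4 negative in each. They ranged from -0.75 (miR-877) to 0.25 in MS2 and from -0.29 to 0.25 in MS5. In MS2 miR-877 lay entirely below controls, where 8.57% of all did. The probe set miR-1982.1 lay entirely above them in MS2 and MS5, at 0.25 in each, where 7.22% and 6.52% of all did. By limma 0 of the 8 had an adjusted p under 0.05, where 1.13% of all did in MS2 and 0% in MS5.

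**Figure D5:**
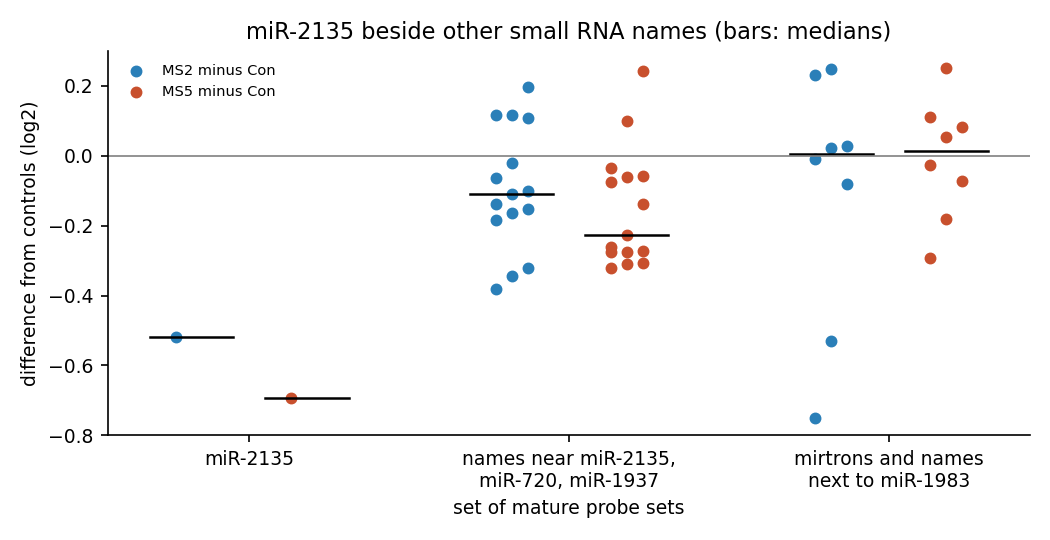
Difference from controls (log2, y) of miR-2135, of 15 mature probe sets with neighbouring names or tRNA overlap, and of 8 mature probe sets of mirtrons and of names next to miR-1983, in blue for MS2 and red for MS5, with black bars at the medians. The 15 lie between -0.38 and 0.24 and mostly below 0, the mirtrons have medians near 0, and miR-2135 stands at -0.52 and -0.69.

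Probe sets that share seed letters were read in the same way. The 10 probe sets of let-7 members, miR-98 and miR-1961, which hold AGGUAG at bases 3 to 8, had a median difference of 0.012 (log2) in MS2, from -0.31 to 0.60, with 5 positive and 5 negative. In MS5 the median was 7.17e-05, from -0.34 to 0.29, again 5 and 5. By limma 1 of the 10 had an adjusted p under 0.05 in MS2, where 1.13% of all did, and 0 in MS5, where 0% did. That 1 was let-7i, at 0.60 in MS2 (SE 0.092, limma adjusted p = 0.0184). In MS2 let-7i and let-7g (0.58) lay entirely above controls, where 7.22% of all did. In MS5 let-7i (0.29) lay entirely above and miR-98 (-0.34) entirely below, where 6.52% and 5.74% of all did. The probe set named miR-412, with no arm given, differed from controls by 0.27 (log2, SE 0.16) in MS2 and by 0.39 (SE 0.16) in MS5, against 0.67 and 0.61 for miR-1983.

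The mature miRs of other loci with the most similar course over the 9 arrays were found by Pearson's r, as a description of arrays that share their groups and their normalization. For miR-1839-3p these were miR-101b (r = 0.93), miR-495 (0.90) and miR-30a-star (0.87), which differed from controls in MS5 by 0.34, 0.48 and 0.47 (log2). For miR-1839-5p they were miR-182 (r = 0.88), miR-873 (0.87) and miR-329 (0.85). For miR-1983 they were miR-194 (r = 0.95), miR-410 (0.93) and miR-376b-star (0.90), and miR-410 differed from controls by 0.67 (log2) in MS2 and 0.49 in MS5. For miR-2135 they were miR-882 (r = 0.87), miR-542-5p (0.87) and miR-712 (0.84). Among the 4 themselves, r was 0.75 between miR-1839-3p and miR-1983, 0.69 between miR-1839-5p and miR-1983 and 0.42 between the arms of mir-1839. Relative to each group's mean the first pair gave r = -0.23, so its likeness lay between groups and not among the arrays within them. In the same measure miR-1839-5p and miR-1983 gave r = 0.57 and the arms -0.13. Both miR-1839-3p and miR-1983 had been chosen for their values on these arrays, so a likeness between groups follows from the choice.

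The gene whose span holds Mir1839, 2900076A07Rik, was measured on the mRNA arrays by 2 probesets. Its strand and exons were not compared with the hairpin, so its transcript is not shown to carry Mir1839. At the brighter one the levels (log2) were 8.91, 9.40, 8.87, 9.07 and 9.15 in control replicates 15 to 19. In MS2 they were 9.07, 9.10, 9.10, 9.22 and 8.90 in replicates 1, 3, 4, 5 and 7, and in MS5 9.09, 9.30, 9.23, 8.97 and 9.24 in replicates 8, 9, 12, 13 and 14. The groups overlapped throughout, with means of 9.08 ± 0.21, 9.08 ± 0.12 and 9.17 ± 0.13 (SD, n = 5). The difference was -0.0022 (SE 0.096, limma adjusted p = 1.00) in MS2 and 0.086 (SE 0.096, limma adjusted p = 1.00) in MS5. The second probeset gave -0.0081 and 0.063 (SE 0.054), with a limma adjusted p of 0.996 and 1.00. These differences were small beside the 0.79 of miR-1839-3p in MS5, while the other arm, miR-1839-5p, differed by 0.16 (SE 0.14). The mRNA and miR values came from different kinds of array and a partly different set of replicate numbers, so their sizes are not directly comparable.

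The mRNAs of 7 enzymes that make or carry such small RNAs did not pass the test in any contrast. Drosha, the nuclear RNase, differed in MS5 by 0.047 (log2, SE 0.046), its partner Dgcr8 by 0.0035 (SE 0.050) and Dicer1 by 0.066 (SE 0.080). The Argonaute gene Ago2 differed by 0.13 (SE 0.088) and the pseudouridine synthase gene Dkc1 by -0.046 (SE 0.059). The RNase Z gene Elac2 differed by -0.060 (SE 0.092) and the tRNA-cutting RNase Ang by 0.077 (SE 0.053). In MS2 the same 7 differed by -0.10 (Dkc1) to 0.10 (Dicer1). By limma the adjusted p was 1.00 for each of the 7 in MS5 and 0.970 to 0.999 in MS2.

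The gene lists for microRNA processing, H/ACA particles, tRNA processing, RNA polymerase III and ribosomal RNA transcription and processing together held 105 names, of which 104 were measured. At an unadjusted p under 0.05, 2 were higher and 3 lower in MS2, which is 5 of 104 where 4.17% of all 55681 probesets passed. These were Ago3 (0.19, log2) and the terminal uridylyltransferase gene Zcchc11 (0.18), and Gtf3c6 (-0.15), a subunit of a polymerase III factor, Utp20 (-0.14), of ribosomal RNA processing, and the helicase gene Ddx5 (-0.13). All 5 had a limma adjusted p of 0.970, and the count was 2 without MS2 replicate 4 or control replicate 19, 3 without control replicate 17, and 8 without MS2 replicate 5 or 7. In MS5 0 of 104 passed, where 3.91% of all did, and 5 without MS5 replicate 13. Between doses 1 passed (Maf1, a repressor of polymerase III, -0.096), where 3.97% of all did, and 4 without MS2 replicate 4 or 5. The limma adjusted count was 0 in each contrast, in which the smallest adjusted p over all probesets was 0.970, 0.629 and 1.00.

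By list, the 22 microRNA pathway genes had a median difference in MS5 of 0.031 (log2), with 13 positive and 9 negative. The range reached 0.79 at Lin28b (SE 0.51, limma adjusted p = 1.00), whose product blocks let-7 processing. All 9 genes of H/ACA particles were negative in MS5, with a median of -0.046, and 8 of 9 in MS2, with a median of -0.10. For the 24 measured tRNA processing genes 5 were positive and 19 negative in MS5, with a median of -0.024 and the lowest at the tRNA kinase gene Clp1 (-0.28, SE 0.14). RNA polymerase III genes (21) had 4 positive and 17 negative in MS5, with a median of -0.048. In MS2 they had 10 and 11, with a median of -0.0015. Genes of ribosomal RNA transcription and processing (28) had 9 and 19 in MS5, with a median of -0.037, and 8 and 20 in MS2. The microRNA pathway genes had 12 positive and 10 negative in MS2, and the tRNA processing genes 8 and 16. Between MS5 and MS2 the H/ACA genes had 7 positive and 2 negative. Over all 55681 probesets 28427 differences were negative in MS2 and 27723 in MS5. The medians over all probesets were -0.0017 in MS2 and 0.00033 in MS5, and in MS5 0 genes of these lists passed the test.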

How the data were processed

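The authors deposited the miR values as log2 levels made with RMA, that is, background correction, quantile normalization of the probes and a median polish over each probe set. As deposited, 54.4% of the 1412 mouse probe sets carry the same value on at least 2 arrays (miR-1839-3p on MS2 replicates 3 and 4), so an SD can be too small. For mRNAs the authors deposited scanner intensity per spot, taken here with normexp (offset 50), quantile normalization, log2 and averaging of spots to 55681 probesets. Their log2 table was an alternative. A deposited flag from the scanner scored each spot as well above background or not.

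Groups were compared in 1 fit of 3 groups with limma 3.58.1 (R 4.3.3), with Benjamini-Hochberg adjustment over all probe sets or probesets. A gene was represented by its probeset with the highest mean level. Of 200 features shifted by 1 (log2) in data simulated with independent normal noise, 96% (miR) and 96.5% (mRNA) were recovered. The simulation held no tissue differences between arrays and no smaller shifts. It therefore does not show how often real differences, or smaller ones, would be found. RNAfold 2.7.2 gave the structures. The members and lists were chosen with earlier results of these data known. Named were the members, their hairpins, the 3 most alike miRs of each, the gene whose span holds Mir1839 and 7 enzyme genes. Ago3, Zcchc11, Gtf3c6, Utp20, Ddx5, Maf1, Lin28b, Clp1, Xist, miR-877, miR-1982.1, let-7i, let-7g, miR-98, miR-2141, miR-2146 and miR-412 were named after their values were seen. The number of arrays limits the precision.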

Additional observations from a re-analysis of the deposited data

Results flagged for a closer look

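Of 27 groups of 5 mRNA arrays tested for a sample apart, 1 was picked out, and about 1 in 20 such groups would be by chance. Control replicate 15 had the highest Dkc1 level of its group, 8.88 (log2), where the other 4 control arrays lay between 8.69 and 8.74, a gap of 0.75 of the group's whole range.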

How the results depend on the processing

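For the 4 mature probe sets, 11 alternatives were set against each contrast. They were array weights, median centring, further quantile normalization, a filter on the mean level, only the 2 groups compared and 1 array left out. All moved the difference by less than 1 SD between arrays, and the sign of each difference from controls was kept. With 3 arrays per group, leaving out 1 array cannot move a difference by 1 SD. The filter and the fit of only the 2 groups leave the difference itself unchanged. Only array weights, median centring and quantile normalization could therefore have exceeded 1 SD. The small differences between MS5 and MS2 changed sign: miR-1839-3p from 0.052 to -0.016 without MS2 replicate 3 or 4, miR-1839-5p from -0.067 to 0.071 without MS5 replicate 9, 0.059 without MS2 replicate 4 and 0.012 with array weights, miR-1983 from -0.050 to 0.067 without MS2 replicate 4, 0.048 without MS5 replicate 9 and 0.019 with array weights, and miR-2135 from -0.17 to 0.12 without MS5 replicate 9. The hairpins gave 0 adjusted calls under each alternative that could be run, and the filter on the mean level dropped some of them and gave no count. The count of small RNA pathway mRNAs at an unadjusted p under 0.05 did depend on the setting, while the limma adjusted count was 0 in every one. In MS2 minus Con it was 2 with an offset of 0 and with the processed signal, 3 within slide 1 and 2 to 8 with 1 array left out, the lowest without Con replicate 19 or MS2 replicate 4 and the highest without MS2 replicate 5 or 7. In MS5 minus Con it was 8 with array weights and with only the 2 groups compared, 4 within slide 1, 3 within slide 2, 1 with the slide as a block and with the mean of all probesets, and 0 to 5 with 1 array left out, the highest without MS5 replicate 13. In MS5 minus MS2 it was 0 with an offset of 0, with the processed signal and with probesets well above background, 9 with array weights and within slide 1 or slide 2, 2 with the slide as a block, and 0 to 4 with 1 array left out, lowest without MS5 replicate 9 and highest without MS2 replicate 4 or 5. The cause was not tested. Ranked by Spearman's correlation, 1 of the 3 most alike miRs stayed for miR-1839-5p, miR-1983 and miR-2135, and by deviations from group means 0 stayed for miR-1839-3p and 1 each for miR-1839-5p and miR-2135. No paired analysis was possible because the sample labels used here give no litter. The authors state that treated pups went back to a cage with untreated littermates, so groups may share litters.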
